A study of Mus musculus with 2 samples.

Results

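Hyaluronan synthesis and binding was followed in mouse limb muscle through 7 genes, Has1, Has2, Ugdh, Tnfaip6, Ptx3, Vcan and Cd44, chosen by symbol from the 32285 genes listed in the files. All 7 were found and all 7 had counts in both libraries. The study compared aged C57BL/6 mice injected intraperitoneally with the small-molecule drug Maraviroc (MVC) with aged C57BL/6 mice given the vehicle DMSO, and asked whether the drug changes the cellular surroundings of ageing muscle. Live mononuclear cells were sorted from enzymatically digested limb muscle and run as 1 droplet library (10x Genomics) per treatment. In the study's account the libraries follow its high-dose, short-term regime, and the number of mice per library is not given in the sources used here. With 1 library per group no test between groups was possible, and every interval below is a 95% interval that covers counting error alone.

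Hyaluronan is a long, unbranched sugar polymer of the extracellular matrix. Hyaluronan synthases at the plasma membrane build it from UDP-glucuronic acid and UDP-N-acetylglucosamine and push the growing chain out of the cell. Outside, the chain is decorated with heavy chains of inter-alpha-trypsin inhibitor, held together by cross-linking proteins, loaded with proteoglycans and bound by receptors on neighbouring cells. In muscle, the main matrix-producing mononuclear cells are the fibro-adipogenic progenitors (FAPs), which are Pdgfra-positive fibroblasts of the interstitium.

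Among the members, Has1 and Has2 are hyaluronan synthases, and Ugdh makes the UDP-glucuronic acid they use. Tnfaip6 (TSG-6) transfers the heavy chains onto hyaluronan, and Ptx3 (pentraxin 3) links such chains to each other. Vcan (versican) is a large proteoglycan that binds the polymer, and Cd44 is its main cell surface receptor. On GRCm38, Has1 lies on chromosome 17 (17843323 to 17855205), Has2 on chromosome 15 (56665627 to 56694539), Ugdh on chromosome 5 (65413221 to 65435949), Ptx3 on chromosome 3 (66219910 to 66225805) and Vcan on chromosome 13 (89655312 to 89742509). Chromosome 2 carries both Tnfaip6 (52038009 to 52056686) and Cd44 (102811141 to 102901665). Has2 is overlapped on the opposite strand by the noncoding gene Has2os, which had 1950 unique molecular identifiers (UMIs, the counted RNA molecules) in FAP-like cells beside 2665 of Has2. Whether the counting used strand is not given in the sources used here, so reads of that overlap cannot be assigned with certainty. Ptx3 overlaps Veph1 and Vcan overlaps Gm4117 in the same way, with 381 and 340 UMIs in FAP-like cells, against 17504 of Ptx3 and 10013 of Vcan.

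Promoters are shown for Has1, Tnfaip6 and Ptx3, the members whose window held an AP-1, C/EBP or NF-kB match, motifs of inflammatory or stress-responsive factors. Their levels across the groups of cells described below do not set these 3 apart. Ugdh, whose window held no such match, had a Pearson correlation of 0.88 with Has1 and 0.90 with Ptx3. Has1 and Ptx3 had 0.84 with each other. Each sequence runs 5′ to 3′ on the gene's strand from 250 bases before to 50 bases after the RefSeq start site of GRCm38.p6, with capitals for matches to AP-1 (TGANTCA), C/EBP (TTGCNNAA), CCAAT and NF-kB motifs, searched on both strands.
Has1, chr17:17855139-17855438, minus strand: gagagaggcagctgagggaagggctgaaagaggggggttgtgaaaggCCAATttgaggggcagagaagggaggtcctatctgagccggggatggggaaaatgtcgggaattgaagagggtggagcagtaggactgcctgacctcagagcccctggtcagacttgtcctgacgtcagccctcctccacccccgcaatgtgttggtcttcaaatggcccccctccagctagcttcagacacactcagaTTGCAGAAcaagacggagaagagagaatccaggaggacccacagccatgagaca
Tnfaip6, chr2:52037863-52038162, plus strand: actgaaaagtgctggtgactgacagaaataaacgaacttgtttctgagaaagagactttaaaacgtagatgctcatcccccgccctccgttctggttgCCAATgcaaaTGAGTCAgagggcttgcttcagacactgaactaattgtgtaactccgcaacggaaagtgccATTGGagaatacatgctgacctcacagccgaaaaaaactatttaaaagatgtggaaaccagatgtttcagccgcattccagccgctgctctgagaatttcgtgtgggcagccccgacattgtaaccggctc
Ptx3, chr3:66219637-66219936, plus strand: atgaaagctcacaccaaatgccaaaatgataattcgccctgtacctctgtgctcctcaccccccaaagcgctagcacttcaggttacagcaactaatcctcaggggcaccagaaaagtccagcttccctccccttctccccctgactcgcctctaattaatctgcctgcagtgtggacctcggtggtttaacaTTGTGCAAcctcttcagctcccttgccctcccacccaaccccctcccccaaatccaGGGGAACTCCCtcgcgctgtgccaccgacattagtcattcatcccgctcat
The Has1 window held a C/EBP match starting 4 bases before the start site and a CCAAT box at -203. In Tnfaip6 an AP-1 match began at -142, between CCAAT boxes at -152 and -81. Ptx3 carried a C/EBP match at -57 and overlapping NF-kB matches at -1 and 1, across the start site itself. Of 32851 RefSeq promoter windows of this length, 7.81% held an AP-1 match, 8.46% an NF-kB match, 10.8% a C/EBP match and 37.4% a CCAAT box. The Vcan window held a CCAAT box at -103, and the windows of Ugdh and Cd44 held none of these letters, and none of the 6 windows found held TATAAA. No window was matched for Has2. A match describes letters and is not a bound site.

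The DMSO library held 5437 cells that passed a floor of 500 genes and a ceiling of 10% of UMIs from mitochondrial genes, and the MVC library 5454, with a median of 5802 and 5195 UMIs per cell. Cells fell into 26 clusters, which gave 14 classes named from fixed markers and 3 clusters left unnamed. The clusters were drawn without any gene of the hyaluronan pathway, so the members did not define them. FAP-like cells numbered 1097 in DMSO and 1334 in MVC, and each of the 9 FAP markers was detected in both, at a summed level of 34271 and 29789 CPM (UMIs of a gene in every 1000000 UMIs of the cells). Of the unnamed clusters, the cluster led by Sbsn and Dmkn matters most here. Its 182 cells (82 in DMSO, 100 in MVC) also had the adventitial fibroblast genes Pi16 and Cd55 among their leading genes, but no class reached the naming rule. The libraries shared 8 barcodes among the kept cells.

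Hyaluronan synthesis, transfer and matrix genes were concentrated in FAP-like cells and the unnamed Sbsn/Dmkn cluster. FAP-like cells and the Sbsn/Dmkn cluster together supplied 92.4% of the Has1 UMIs in DMSO and 91.9% in MVC, although FAP-like cells were 20.2% and 24.5% of the libraries and the Sbsn/Dmkn cluster 1.51% and 1.83%. For Has2 the shares were 88.1% and 92.6%, for Ptx3 87.4% and 90.8%, and for Vcan 86.0% and 86.2%. Ugdh (83.0% in both libraries) and Tnfaip6 (82.9% and 85.4%) were slightly less concentrated. Cd44 differed, with 35.6% and 39.8% of its UMIs in FAP-like cells and this cluster.

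**Figure D1:**
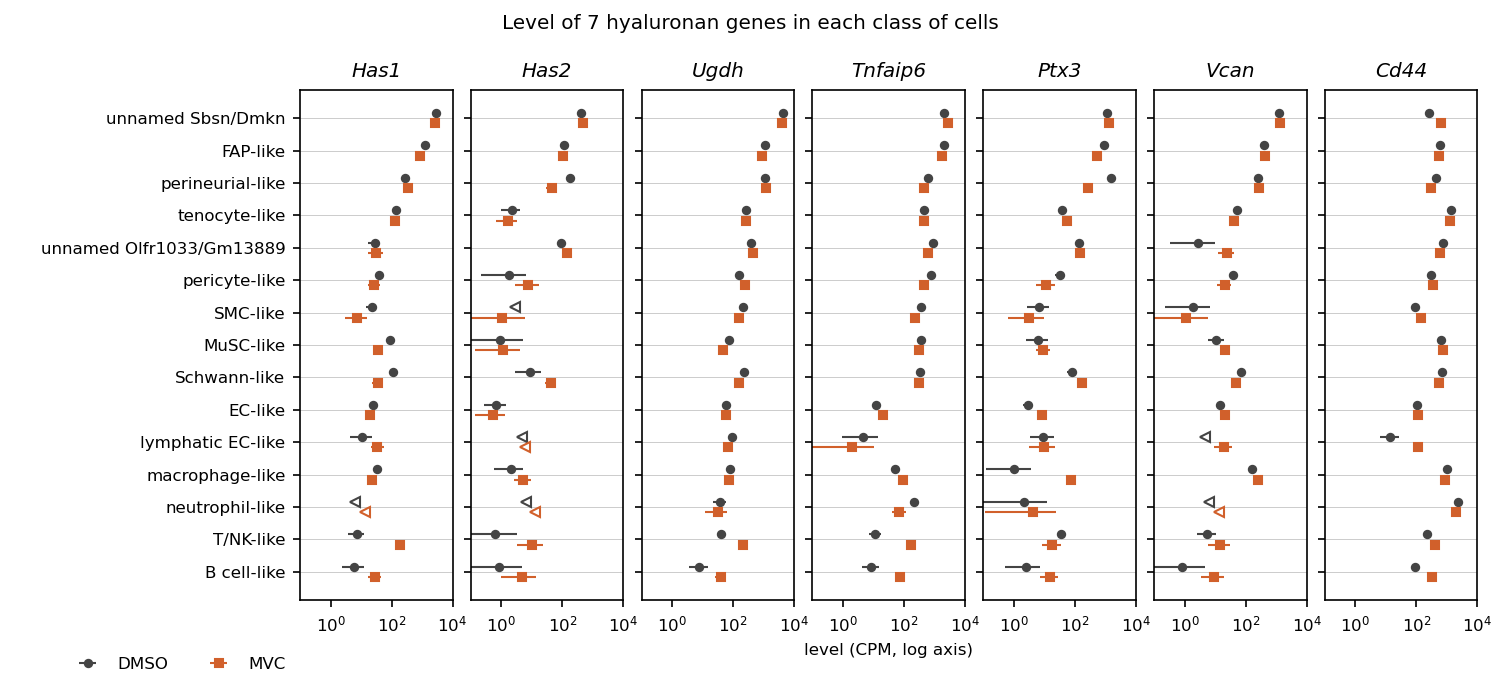
Level of each gene (CPM, log axis) in 15 groups of cells, with DMSO as circles and MVC as squares, 95% counting intervals as bars, and open triangles for 0 UMIs placed at the level of 3 UMIs. Has1, Has2, Ugdh and Vcan are highest in the Sbsn/Dmkn cluster in both libraries, whereas Cd44 is highest in neutrophil-like and then tenocyte-like cells.

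Has1 was highest in the Sbsn/Dmkn cluster, at 2768 CPM (2681 to 2857) in DMSO and 2710 CPM (2619 to 2803) in MVC. A Has1 UMI was found in 98.8% and 98.0% of its cells, and in 95.1% and 89.8% when each cell was thinned to 2000 UMIs. FAP-like cells came next, at 1209 CPM in DMSO and 854 CPM in MVC. Perineurial-like cells, which sheathe nerves, held 287 and 345 CPM, and tenocyte-like cells 146 and 129 CPM. The remaining named classes lay at or below 112 CPM in DMSO. In MVC they lay at or below 35.1 CPM, apart from T/NK-like cells at 195 CPM, where 3 cells held every one of the 95 UMIs and no UMI was left once called doublets were removed. Neutrophil-like cells, which should lack the gene, had no Has1 UMI in 63 cells of DMSO and 34 of MVC, which allows up to 4.76% and 8.82% of cells with a UMI at their depth (median 6421 and 6087 UMIs) and does not limit how many express the gene. In EC-like (endothelial) cells 9.53% and 6.73% had a Has1 UMI, at a median depth of 3821 and 3651.5 UMIs per cell.

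Has2, the synthase essential for hyaluronan in the embryo, was more narrowly spread. The Sbsn/Dmkn cluster held 405 CPM in DMSO and 469 CPM in MVC, and 48.1% and 55.1% of its thinned cells had a UMI. FAP-like cells held 114 and 109 CPM, with intervals of 108 to 120 and 103 to 115. Perineurial-like cells reached 179 CPM in DMSO but 45.0 CPM in MVC, from 156 and 23 UMIs. The unnamed cluster led by Olfr1033 and Gm13889 held 92.4 and 142 CPM, with intervals that overlapped those of FAP-like cells in both libraries. Has2 was near 0 elsewhere, at 2.18 and 1.63 CPM in tenocyte-like cells and 0.680 and 0.518 CPM in EC-like cells, and apart from 40.9 CPM in Schwann-like cells of MVC no other named class with at least 20 cells per library exceeded 10.3 CPM. Tenocyte-like cells, which came after perineurial-like cells for Has1, thus had 9 and 7 UMIs of Has2.

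Ugdh followed the synthases. In the Sbsn/Dmkn cluster it stood at 4289 CPM (4181 to 4400) in DMSO and 3997 CPM (3887 to 4110) in MVC, and each of the 82 DMSO and 100 MVC cells had a UMI. FAP-like cells held 1132 and 873 CPM and perineurial-like cells 1102 and 1150 CPM. In DMSO these neighbours in the order did not differ beyond their intervals, and in MVC perineurial-like cells stood above FAP-like cells. Tenocyte-like cells held 270 and 258 CPM.

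Tnfaip6 was highest in the Sbsn/Dmkn cluster and in FAP-like cells, at 2037 and 1983 CPM in DMSO, where the intervals overlapped, and at 2734 and 1735 CPM in MVC. Unlike Has2, it was also found well outside these groups of cells. Pericyte-like cells, which wrap capillaries, held 766 CPM in DMSO and 441 CPM in MVC, the Olfr1033/Gm13889 cluster 895 and 603 CPM, tenocyte-like cells 466 and 459 CPM, and MuSC-like (muscle stem) cells 367 and 302 CPM. EC-like cells had 12.3 and 20.2 CPM.

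Ptx3 had no fixed first place. Perineurial-like cells held the highest level in DMSO, 1515 CPM (1434 to 1599), but 276 CPM (232 to 326) in MVC, from 1320 and 141 UMIs in 96 and 73 cells. A Ptx3 UMI was seen in 35.4% and 11.0% of these cells, and 3 cells held 40.1% and 85.1% of the UMIs. The Sbsn/Dmkn cluster followed with 1140 and 1316 CPM and FAP-like cells with 938 and 542 CPM. Tenocyte-like cells held 38.7 and 56.6 CPM.

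Vcan was highest in the Sbsn/Dmkn cluster at 1239 CPM (1181 to 1299) and 1294 CPM (1231 to 1358), and in 80.2% and 79.6% of its thinned cells. FAP-like cells held 388 and 445 CPM, perineurial-like cells 260 and 278 CPM, and macrophage-like cells 156 and 258 CPM. The intervals of the perineurial-like and macrophage-like levels overlapped in MVC and were apart in DMSO. Neutrophil-like cells had no Vcan UMI, with the same limits on cells with a UMI as for Has1.

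Cd44 was arranged differently. Neutrophil-like cells held 2227 CPM in DMSO and 1905 CPM in MVC, and each of their 63 and 34 cells had a UMI. Tenocyte-like cells followed with 1309 and 1251 CPM, and macrophage-like cells with 992 and 888 CPM. Schwann-like cells held 709 and 528 CPM, FAP-like cells 570 and 550 CPM, MuSC-like cells 637 and 753 CPM, and EC-like cells 108 and 108 CPM. The Sbsn/Dmkn cluster, first for the synthases, held 265 CPM in DMSO and 645 CPM in MVC. Over 46 points (23 classes and FAP-like subtypes in each of 2 libraries), the Pearson correlation of log2(CPM + 10) between pairs of the other 6 genes ran from 0.71 to 0.90 in 15 pairs. Pairs with Cd44 ran from 0.17 to 0.43. Points of a library share its depth and its pool of free RNA, and subtypes are parts of a class, so these values are a description.

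The genes with the pattern most like that of each member over the same points were taken from 10355 genes with at least 500 UMIs. Has1 was nearest to Adgrd1 (r = 0.91), Ptgs2os (0.88) and Mfap5 (0.87). Has2 was nearest to its overlapping partner Has2os (0.90), then Mfap5 (0.89) and Il1rl2 (0.87). For Ugdh these were Vasn (0.92), Dcbld2 (0.89) and Mfap5 (0.87), and for Vcan Adgrd1 (0.92), Dnm1 (0.90) and Qpct (0.89). Mfap5, a microfibril protein of adventitial fibroblasts, was thus among the closest genes of both synthases and of Ugdh. Tnfaip6 was nearest to Hspb8 (0.90), Lrp1 (0.89) and Ddr2 (0.88), Ptx3 to Fgf7 (0.88), Kif21a (0.87) and Fam227b (0.85), and Cd44 to Smim3 (0.82), Plekhm2 (0.74) and Atf1 (0.69).

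Within FAP-like cells, 10 subclusters gave 8 subtypes. Fixed marker sets named Ifi205/Ccl7, Pi16/Dpp4, Cxcl14/Smoc2 and Gdf10/C7 cells, and the rest were called by their leading genes. The Zfp36/Btg2 subtype was led by immediate early genes that tissue digestion can induce. A Fabp4/Cd36 subtype was made of called doublets to 100% in DMSO and 91.7% in MVC and is left out below. The Ifi205/Ccl7 subtype was 34.0% (31.2 to 36.9%) of FAP-like cells in DMSO and 23.1% (20.9 to 25.4%) in MVC. The Cxcl14/Smoc2 subtype was 14.2% (12.2 to 16.4%) in DMSO and 24.0% (21.7 to 26.4%) in MVC.

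**Figure D2:**
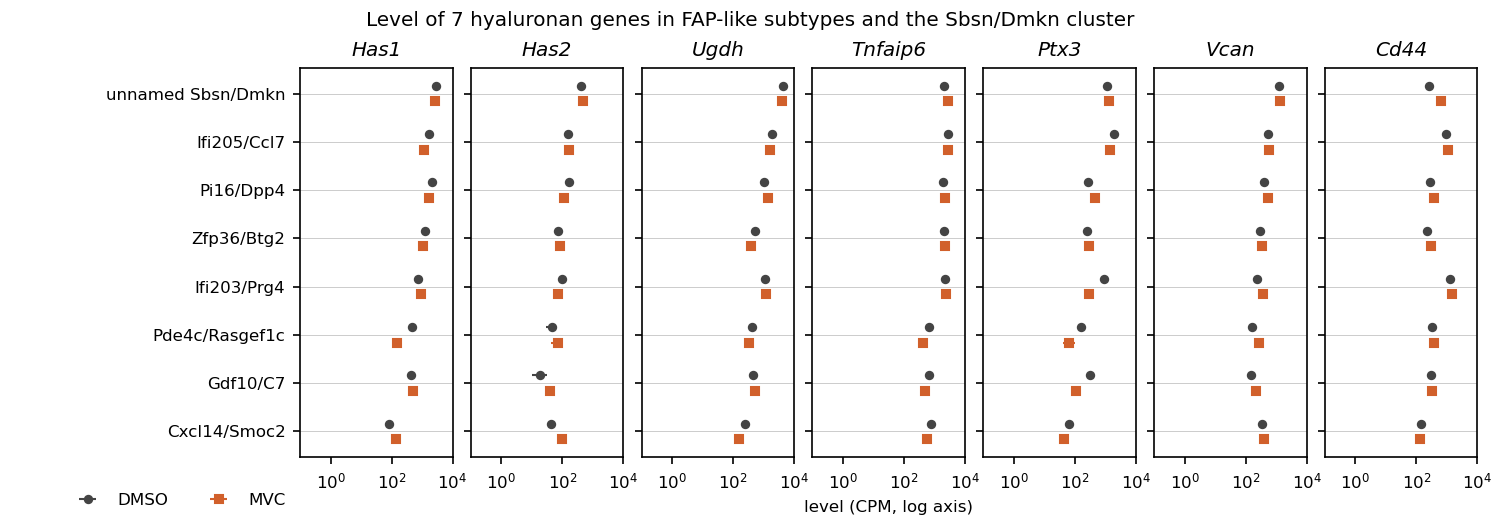
Level of each gene (CPM, log axis) in 7 FAP-like subtypes and, in the top row, the unnamed Sbsn/Dmkn cluster, with DMSO as circles, MVC as squares and 95% counting intervals. Has1 spans 2768 to 79.8 CPM in DMSO between the Sbsn/Dmkn cluster and the Cxcl14/Smoc2 subtype. Vcan spans 1239 to 147 CPM in DMSO between that cluster and the Gdf10/C7 subtype.

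The subtypes differed widely in the synthases. Has1 was highest in Pi16/Dpp4 cells, at 2087 CPM in DMSO and 1646 CPM in MVC, followed by Ifi205/Ccl7 cells at 1652 and 1173 CPM. Cxcl14/Smoc2 cells held 79.8 and 136 CPM, with a UMI in 5.19% and 4.98% of thinned cells against 44.2% and 47.3% of Pi16/Dpp4 cells. Has2 was highest in Pi16/Dpp4 (161 and 111 CPM) and Ifi205/Ccl7 cells (158 and 160 CPM) and lowest in Gdf10/C7 cells (18.5 and 40.2 CPM).

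Ugdh reached 1877 and 1640 CPM in Ifi205/Ccl7 cells, 1001 and 1342 CPM in Pi16/Dpp4 cells, and 249 and 153 CPM in Cxcl14/Smoc2 cells. Ptx3 stood at 1902 CPM in DMSO and 1385 CPM in MVC in Ifi205/Ccl7 cells, with a UMI in 54.1% and 40.4% of their thinned cells. Cxcl14/Smoc2 cells held 65.1 and 43.2 CPM of Ptx3. Ifi205/Ccl7 cells, as named here, therefore supplied most of the Ptx3 of FAP-like cells, 8738 of 10725 UMIs in DMSO and 4604 of 6779 in MVC. Tnfaip6 went from 2775 and 2709 CPM in Ifi205/Ccl7 cells to 650 and 488 CPM in Gdf10/C7 cells. Vcan was 547 and 567 CPM in Ifi205/Ccl7 cells, 340 and 400 CPM in Cxcl14/Smoc2 cells, and 147 and 221 CPM in Gdf10/C7 cells. Cd44 was highest in the Ifi203/Prg4 subtype, whose leading gene Prg4 encodes the joint lubricant lubricin, at 1299 and 1441 CPM, then in Ifi205/Ccl7 cells at 895 and 1063 CPM. It was lowest in Cxcl14/Smoc2 cells, at 145 and 129 CPM. At a finer resolution of 1.2 part of the Ifi205/Ccl7 cells were named Pi16/Dpp4, and that larger Pi16/Dpp4 group then held 1462 and 998 CPM of Ptx3 and 2565 and 1909 CPM of Has1. The Ifi205/Ccl7 cells of that resolution held 5887 Ptx3 UMIs in DMSO and 3229 in MVC, no longer most of them in MVC. The Pi16/Dpp4 group held 3429 and 2190.

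The genes were also found together in single cells. Among FAP-like cells thinned to 2000 UMIs (1051 in DMSO, 1216 in MVC), Has1 was detected in 73.4% (67.8 to 78.5%) of DMSO cells with a Ptx3 UMI and in 30.9% (27.7 to 34.3%) of those without. In MVC the shares were 60.5% (53.5 to 67.1%) and 28.8% (26.0 to 31.7%). Ugdh was detected in 72.2% of DMSO cells with a Has1 UMI and 39.3% of those without, and in 67.1% and 34.7% of MVC cells. Of 42 ordered pairs of members, the share was higher in cells with the partner in 42 pairs in both libraries, with intervals that did not overlap in 34 pairs in DMSO and 35 in MVC. These are 21 pairs, each read both ways, and both readings of a pair have the same direction. Pairs of other genes were not counted, so it is not known whether these counts are particular to the members. Inside Ifi205/Ccl7 cells the share was higher with the partner in 34 of 42 pairs in DMSO and 40 of 42 in MVC, with intervals apart in 13 and 16. There Has1 was detected in 77.5% (71.1 to 83.1%) of DMSO cells with Ptx3 and 50.6% (42.8 to 58.3%) of those without. The matching MVC shares were 63.9% (54.7 to 72.4%) and 47.2% (39.8 to 54.8%). In tenocyte-like cells Has1 was detected in 15.7% of DMSO cells with Cd44 and 14.9% of those without.

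**Figure D3:**
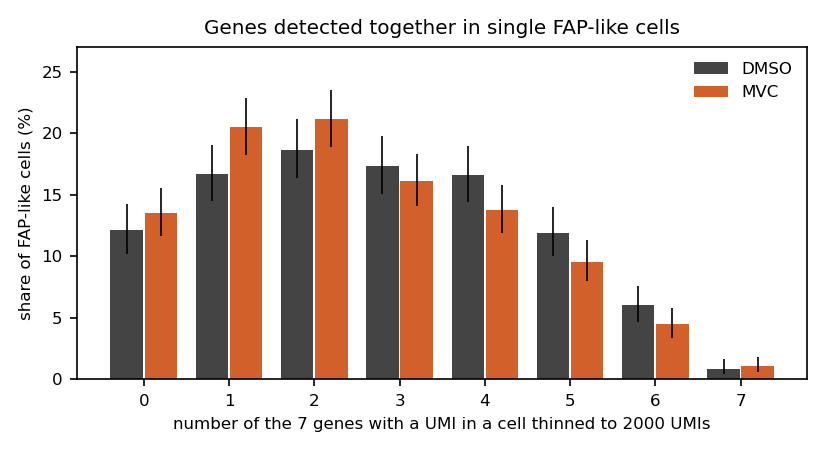
Share of FAP-like cells (%) by the number of the 7 genes with at least 1 UMI after thinning to 2000 UMIs, with DMSO in grey, MVC in orange and exact binomial 95% intervals. Cells with 4 or more genes were 35.3% in DMSO and 28.8% in MVC.

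At least 4 of the 7 genes were detected in 371 of 1051 FAP-like cells in DMSO (35.3%, 32.4 to 38.3%) and 350 of 1216 in MVC (28.8%, 26.3 to 31.4%). Ptx3 was unevenly distributed over FAP-like cells. The tenth of FAP-like cells with the most Ptx3 held 76.9% of its thinned UMIs in DMSO and 89.6% in MVC. The same share was 50.4% and 50.5% for Cd44 and 55.1% and 47.2% for Vcan, whose level was below that of Ptx3 in both libraries. For Has2 it was 87.6% and 89.4%. This share tends to rise as the level of a gene falls. Has2 had a median of 0 and at most 7 and 12 UMIs per thinned cell, so its share cannot be read as uneven distribution. No genes of like level were compared.

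The levels of FAP-like cells were then compared in MVC vs. DMSO. Ptx3 was 938 CPM in DMSO and 542 CPM in MVC, a ratio of 0.578 (0.561 to 0.596), or -0.79 on the log2 scale. Has1 was 1209 and 854 CPM, a ratio of 0.707 (0.689 to 0.725), and Ugdh 1132 and 873 CPM, a ratio of 0.772 (0.752 to 0.792). Tnfaip6 stood at 1983 and 1735 CPM, a ratio of 0.875 (0.859 to 0.892). The level of Has2 differed by less than its counting interval, with a ratio of 0.954 (0.884 to 1.03). Cd44 had a ratio of 0.965 (0.932 to 0.998) and Vcan 1.15 (1.10 to 1.19). Shares of thinned cells with a UMI went from 42.2% to 34.3% for Has1, from 26.5% to 17.3% for Ptx3, from 53.2% to 45.8% for Ugdh and from 34.8% to 42.5% for Vcan, from DMSO to MVC.

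The median log2 ratio over 12548 genes in these cells was 0.15, so relative to that median Ptx3 was at -0.94, Has1 at -0.65, Ugdh at -0.52, Tnfaip6 at -0.34, Has2 at -0.21, Cd44 at -0.20 and Vcan at 0.05. Ptx3 was the member past a 1.5-fold difference, 1 of 7, where 2.96% of 12552 genes were lower and 12.3% were higher past that fold. The median log2 ratio of CPM + 10 was -0.19 over the 7 members and 0.08 over those genes. Of 30 genes that dissociation can induce, 3 were lower past 1.5-fold and none was higher, with a median of -0.11, and their part in the result was not tested. The summed FAP markers were at 34271 and 29789 CPM, as given above, and 6 neutrophil markers at 36.3 and 2.96 CPM, with 2 of the 6 at 0 in MVC, whose part was likewise not tested. With the MVC subtypes weighted as they occurred in DMSO, Ptx3 was at -0.42 and no longer past 1.5-fold, Has1 at -0.37, Ugdh at -0.13, Tnfaip6 at -0.01, and Cd44 turned to 0.25.

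**Figure D4:**
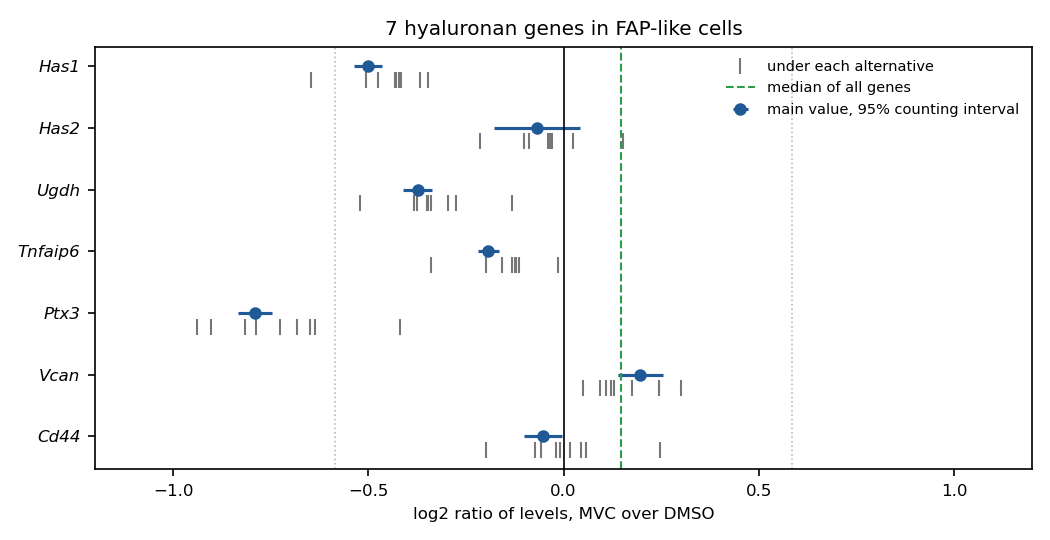
Log2 ratio of the level of each gene in FAP-like cells, MVC over DMSO, with its 95% counting interval (blue), the value under each alternative way of processing (grey ticks), the median of all genes at 0.15 (dashed) and the 1.5-fold limits (dotted). Ptx3, Has1, Ugdh and Tnfaip6 lie below 0 under every alternative shown, Vcan lies above 0, and the ticks of Has2 and Cd44 fall on both sides.

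Inside the subtypes the difference was uneven. In Ifi205/Ccl7 cells Has1 had a ratio of 0.710 (0.683 to 0.738) and Ptx3 of 0.728 (0.702 to 0.754), whereas Tnfaip6 was at 0.976 (0.950 to 1.003) and Cd44 at 1.19 (1.14 to 1.24). None of the 7 members was past 1.5-fold there, and 11.3% of genes were. In Zfp36/Btg2 cells also no member was past 1.5-fold, where 16.7% of genes were, with Has1 at 0.867 and Ugdh at 0.737.

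In Pi16/Dpp4 cells Has1 was at 0.789 (0.746 to 0.834), but Ptx3 at 1.73 (1.51 to 1.98) was past 1.5-fold, 1 of 7 members where 18.7% of genes were. In Gdf10/C7 cells Ptx3 was at 0.329 (0.261 to 0.413), Has2 at 2.18 (1.18 to 4.23) and Vcan at 1.51 (1.21 to 1.90), so 3 of 7 members were past 1.5-fold where 20.3% of genes were. These Ptx3 values rested on few cells, since 3 cells held 32.6 to 56.6% of the UMIs, and both changed direction at resolution 1.2, to log2 ratios of -0.55 in Pi16/Dpp4 and 1.31 in Gdf10/C7 cells. The Vcan ratio in Gdf10/C7 cells was 1.28 without called doublets and 1.42 at resolution 1.2, inside 1.5-fold in both, and Has2 there had 15 and 42 UMIs. In Cxcl14/Smoc2 cells Ugdh was at 0.616 (0.535 to 0.709) and Ptx3 at 0.664 (0.505 to 0.875), while Has1 was at 1.71 (1.39 to 2.11) and Has2 at 2.32 (1.75 to 3.12), which makes 4 of 7 members past 1.5-fold where 19.6% of genes were. Ptx3 was inside that fold without called doublets (0.686) and at resolution 1.2 (0.684), and the other 3 stayed past it. In the MVC library 3 cells held 61.9% of the Has1 and 42.1% of the Has2 UMIs of this subtype. Of the 30 dissociation genes 15 were lower and none higher past 1.5-fold in Cxcl14/Smoc2 cells (median -0.54). Over all genes 4.84% were lower and 14.8% higher there. In Gdf10/C7 cells 12 were lower and 1 higher (median -0.50), where 6.21% of all genes were lower and 14.1% higher. The part of the dissociation genes was not tested.

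Among other classes with at least 100 cells per library, the members differed in number and direction. Tenocyte-like cells had no member of 6 past 1.5-fold, where 14.4% of genes were, with Cd44 at a ratio of 0.956 (0.920 to 0.993). In MuSC-like cells Has1 went from 91.9 to 35.1 CPM, a ratio of 0.382 (0.275 to 0.528), and 3 of 5 members were past 1.5-fold where 18.8% of genes were. Without called doublets Has1 alone of these met the rule, with Ugdh at a ratio of 0.678 and Vcan at 11 and 28 UMIs. Of the 30 dissociation genes 11 were higher and 2 lower past 1.5-fold in these cells (median 0.52). Over all genes 9.63% were higher and 9.19% lower there, and the part of the dissociation genes was not tested. In pericyte-like cells Tnfaip6 went from 766 to 441 CPM, a ratio of 0.575 (0.505 to 0.653), and 3 of 5 members were past 1.5-fold where 17.7% of genes were. Without called doublets Tnfaip6 alone of these stayed past it, with Ugdh at a ratio of 1.21 and Vcan at 1 and 2 UMIs. There, 12 of 29 dissociation genes were lower past 1.5-fold as well and 1 was higher (median -0.40). Over all genes 7.92% were lower and 9.76% higher in these cells, and the part of the dissociation genes was not tested.

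Macrophage-like cells had Vcan at 156 CPM in DMSO and 258 CPM in MVC, a ratio of 1.66 (1.44 to 1.91), and 3 of 6 members past 1.5-fold where 16.9% of genes were. Without called doublets Vcan alone of these was still past that fold with at least 50 UMIs, and Tnfaip6 had 21 and 27 UMIs. Ptx3 in these cells had 2 UMIs in DMSO and 154 in MVC, a ratio of 70.5 (19.2 to 587), but 3 cells held 98.1% of the MVC UMIs and 16 UMIs were left without called doublets. In EC-like cells 3 of 6 members were past 1.5-fold, all of them higher, where 13.0% of genes were past it and 8.92% were higher. Among these members was Tnfaip6, from 127 to 156 UMIs. Once called doublets were removed, the Tnfaip6 ratio turned from 0.71 to -0.43 on the log2 scale, Ptx3 had 25 and 26 UMIs and was no longer past 1.5-fold, and Vcan was still past it. B cell-like cells (205 and 104) had Cd44 at 86.4 CPM in DMSO and 314 CPM in MVC, a ratio of 3.63 (2.85 to 4.65). Without called doublets these levels were 87.1 and 292 CPM. Tnfaip6 in B cell-like cells had 10 and 49 UMIs, and 8 and 3 without called doublets. The share of all genes past 1.5-fold was not counted in B cell-like cells.

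The wider pathway was read from a list of 47 hyaluronan genes that includes the members. In FAP-like cells 31 of the 47 reached 50 UMIs, of which 3 were lower and 3 higher past 1.5-fold, with a median log2 ratio of CPM + 10 of -0.02 against 0.08 over all genes tested. Over all genes tested, 2.96% were lower and 12.3% higher past that fold. Among 11 genes of precursor supply, 2 were lower past 1.5-fold, none was higher and 9 were inside it. Hk2, a hexokinase, went from 838 to 502 CPM, a ratio of 0.599 (0.580 to 0.619). Uap1, which makes UDP-N-acetylglucosamine, the other building block of the chain, went from 1362 to 863 CPM, a ratio of 0.634 (0.618 to 0.649). Gfpt2, an entry enzyme of the same branch, went from 1595 to 1093 CPM, a ratio of 0.685 (0.670 to 0.701) just inside the limit. Like Ugdh, the genes Gfpt2, Uap1 and Hk2 were higher in the Sbsn/Dmkn cluster than in FAP-like cells. In the Sbsn/Dmkn cluster Gfpt2 stood at 4581 and 3638 CPM, Uap1 at 3015 and 2636 CPM, and Hk2 at 1201 and 924 CPM.

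**Figure D5:**
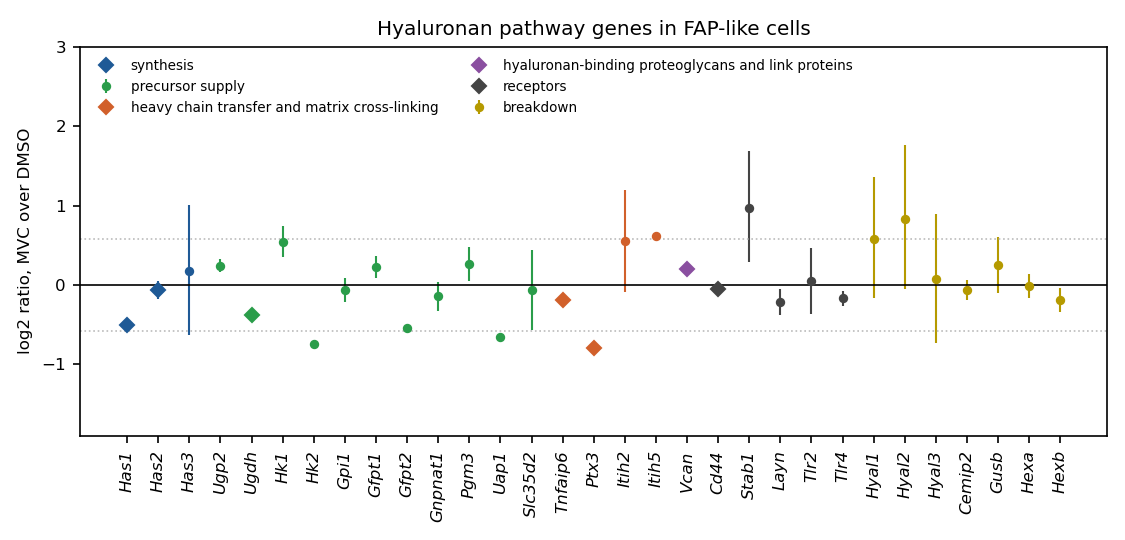
Log2 ratio of levels, MVC over DMSO, in FAP-like cells for the 31 hyaluronan pathway genes with at least 50 UMIs, coloured by role, with the 7 members as diamonds, 95% counting intervals as bars and the 1.5-fold limits dotted. Hk2, Uap1 and Ptx3 lie below the lower limit and Itih5, Stab1 and Hyal2 above the upper one.

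Of 4 measured genes of heavy chain transfer and cross-linking, Ptx3 was lower and Itih5 higher past 1.5-fold. Itih5, a member of the heavy chain family, went from 379 to 581 CPM, a ratio of 1.53 (1.48 to 1.59). The receptor Stab1 had 27 and 58 UMIs and the hyaluronidase Hyal2 17 and 33 UMIs in DMSO and MVC, and the interval of the Hyal2 ratio of 1.78 (0.961 to 3.40) included no difference. The third synthase, Has3, had few UMIs in FAP-like cells, 31 in MVC, and no member of the aggrecan and link protein group other than Vcan reached 50 UMIs. Among receptors other than Cd44, Tlr4 had 1803 of its 2998 DMSO UMIs and 1753 of its 2850 MVC UMIs in FAP-like cells, and Layn 612 of 902 and 577 of 858. Lyve1, the receptor of lymphatic vessels, was at 2571 and 1720 CPM in lymphatic EC-like cells and had 7 UMIs in FAP-like cells of MVC.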

How the data were processed

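The submitters' processing notes name Cell Ranger 7.0.0, Seurat 5.0.1 and mm10. The deposited files held raw UMI counts per gene and cell for 1 DMSO and 1 MVC library, without normalization. Intron and strand settings are not given in the sources used here. No authors' cell annotation was used, so cell names were rebuilt and may differ from the study's.

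Of 5812 DMSO and 6047 MVC barcodes, cells passing a floor of 500 genes and a ceiling of 10% of UMIs from mitochondrial genes entered the analysis (5437 and 5454 cells, 38748234 and 35518029 UMIs). Counts were log-normalised, and 2000 variable genes without mitochondrial, sex-linked or hyaluronan genes gave 30 principal components and Leiden clusters at resolution 1 (Python 3.11.15, numpy 2.4.6, scipy 1.17.1, scikit-learn 1.9.0, leidenalg 0.10.2, igraph 0.11.9, matplotlib 3.10.9). No integration was applied. Clusters were named by fixed markers, and FAP-like cells were clustered again at resolution 0.6. Doublets were scored against simulated pairs within each library and kept, 236 (4.34%) in DMSO and 238 (4.36%) in MVC.

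A level is the summed UMIs of a gene over all UMIs of a class, scaled to CPM, with an exact Poisson interval. Shares carry exact binomial intervals and ratios exact conditional ones. Ratios were read for classes with at least 100 cells in each library and called past 1.5-fold for genes with at least 50 UMIs. Thinning to 2000 UMIs left out 447 and 981 cells. A count of 0 allows up to 3 counts. Named genes were the 7 members, genes of the hyaluronan list past 1.5-fold in FAP-like cells, and the 3 genes most like each member. Has3, Gfpt2, Tlr4, Layn and Lyve1 in the report, and Cemip2 in the closing section, were named outside that rule after their values were seen. So were Hk1, Ugp2, Gfpt1, Pgm3, Gpi1, Gnpnat1 and Slc35d2, given beside the other genes of precursor supply. The members and lists were chosen with earlier results of these data known. The counting was tested on simulated data. Alternatives covered cell filters, doublets, scaling, class assignment, depth and subtype resolution.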

Additional observations from a re-analysis of the deposited data

Results flagged for a closer look

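In 5 cases a member moved in opposite directions in different groups of cells, MVC vs. DMSO. None of these differences was tested, since each group was 1 library. Ugdh had a ratio of 1.60 in pericyte-like and 0.657 in MuSC-like cells, a difference of log2 ratios of 1.29. Without called doublets the ratios were 1.21 and 0.678, and with cells classed by their own markers the pericyte-like value turned to -0.68 on the log2 scale. Ptx3 differed by 2.39 between the Pi16/Dpp4 and Gdf10/C7 subtypes, and both directions turned at resolution 1.2. Ptx3 also differed by 6.93 between macrophage-like and FAP-like cells, where 3 macrophage-like cells held 98.1% of the MVC UMIs.

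Tnfaip6 differed by 3.95 between B cell-like and pericyte-like cells. The B cell-like counts were 10 UMIs in DMSO and 49 in MVC, with 89.8% of the latter in 3 cells, and without called doublets they were 8 and 3. Vcan differed by 1.84 between MuSC-like and pericyte-like cells, and the pericyte-like counts of 42 and 16 UMIs went to 1 and 2 without called doublets.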

How the results depend on the processing

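No paired analysis was possible because each group was 1 library. The values here are log2 ratios of MVC over DMSO in FAP-like cells that moved beyond their counting interval, and the cause was not tested. Has1 (-0.50) was -0.35 as a mean of per-cell CPM, -0.65 and thus past 1.5-fold under median-ratio scaling, -0.42 with cells classed by their own markers, -0.42 with clusters centred within library and -0.43 thinned to 2000 UMIs. Has2 (-0.07) was 0.15 per cell and -0.21 under median-ratio scaling. Ugdh (-0.37) was -0.28 per cell, -0.52 under median-ratio scaling and -0.30 thinned. Tnfaip6 (-0.19) was -0.16 without doublets, -0.13 per cell, -0.34 under median-ratio scaling, -0.12 by own markers, -0.12 centred and -0.11 thinned. Ptx3 (-0.79) was -0.90 without doublets, -0.94 under median-ratio scaling, -0.68 by own markers, -0.64 centred and -0.73 thinned. Cd44 (-0.05) was -0.20 under median-ratio scaling and turned to 0.017 by own markers and 0.044 centred. Vcan (0.20) was 0.11 without doublets, 0.30 per cell, 0.050 under median-ratio scaling, 0.094 by own markers and 0.13 centred. A stricter cell filter moved none of the 7.

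Both of the following settings were chosen after seeing the data. With the Sbsn/Dmkn cluster counted as FAP-like, Has1 was -0.43, Tnfaip6 -0.12, Ptx3 -0.65, Cd44 0.056 and Vcan 0.12. With subtypes weighted as in DMSO, Has1 was -0.37, Ugdh -0.13, Tnfaip6 -0.013, Ptx3 -0.42 and Cd44 0.25. Restricting to genes with at least 200 UMIs took the genes past 1.5-fold from 372 to 162 lower and from 1538 to 616 higher.

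Elsewhere, directions turned for Cd44 in tenocyte-like cells (0.017 per cell, 0.035 thinned), Vcan in tenocyte-like cells (0.28 by own markers), Tnfaip6 in EC-like cells (-0.43 without doublets, -0.25 by own markers), Ugdh in pericyte-like cells (-0.68 by own markers), Vcan in pericyte-like cells (1.43 without doublets, 0.56 per cell, 1.39 thinned) and Tnfaip6 in B cell-like cells (-0.36 without doublets). At resolution 1.2 they turned for Ugdh (-0.12) and Ptx3 (-0.55) in Pi16/Dpp4 and for Tnfaip6 (0.22) and Ptx3 (1.31) in Gdf10/C7 cells, while of the other subtype values 16 moved beyond their interval and 16 stayed within it.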

Other observations

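Other hyaluronan genes marked endothelial cells and macrophages. Cemip2, a membrane protein linked to hyaluronan breakdown, stood at 2144 CPM in lymphatic EC-like cells of DMSO and 439 CPM in those of MVC, from 75 and 79 cells. In EC-like cells it was at 365 and 470 CPM, a ratio of 1.29 (1.23 to 1.35). Lyve1 came next in macrophage-like cells, at 330.4 CPM in DMSO and 262 CPM in MVC, and the scavenger receptor Stab1 stood at 161 and 179 CPM in the same cells.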
